A study of Mus musculus with 15 samples.

Results

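The comparison set the cS5Ahi line of mice against the cS5Alo line, with 5 libraries each out of the 15 in the series. The 10 libraries were chosen by the genotype in their labels. All came from untreated mice aged 15 weeks, as CD8-positive cells taken from lymph node suspensions with a magnetic positive selection kit, and polyadenylated RNA was sequenced. The labels do not explain the line names; from what is known of the study they are read here as transgenic for a constitutively active form of STAT5A, at a high level in cS5Ahi and a low level in cS5Alo. No label states the promoter of the transgene. The other 5 libraries came from WT C57BL/6N mice, each pooling the lymph nodes of 2 to 3 animals, and serve as context. The labels do not say whether a cS5Ahi or cS5Alo sample was 1 mouse, so the p-values speak of variation among these samples, which may be technical.

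STAT5A and STAT5B are transcription factors that lie downstream of cytokine receptors. Binding of interleukin 2, 7 or 15 to receptors with the common gamma chain activates the kinases JAK1 and JAK3, which phosphorylate STAT5. The phosphorylated dimer enters the nucleus and binds motifs with the core TTCNNNGAA. In CD8 T cells this pathway is known for survival through BCL2 proteins, for memory and cytotoxic differentiation, and for its own restraint through CISH and the SOCS proteins. Active STAT5 variants occur in human T cell leukaemias and lymphomas.

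Several features of the libraries bear on every value below. One label of cS5Ahi 1, the description, carries the name of the other line, while its genotype and title read cS5Ahi; its Stat5a level was that of the other cS5Ahi libraries. All cS5Ahi libraries were on 1 flow cell and all cS5Alo libraries on another, so flow cell and line cannot be told apart. Xist, transcribed from the inactive X chromosome, stood at 1457 to 2493 CPM (the reads of a gene scaled to a common library size) in all 5 cS5Alo libraries and in cS5Ahi 4 and 5 at 3282 and 2120 CPM, but at 8.87 to 24.4 CPM in cS5Ahi 1, 2 and 3. The Y-linked gene Ddx3y was at 54.2 to 77.4 CPM in those 3 libraries and at or under 0.974 CPM in the other 7. The labels give no sex. Each test was therefore also run with the Y-linked level as a covariate and in the 7 libraries with high Xist alone. The latter setting was chosen after the data were seen, and "both settings" below means this pair. As Y-linked transcripts were high in cS5Ahi 1, 2 and 3 only, the line difference rests mainly on cS5Ahi 4 and 5 in either. The pair is thus nearly 1 comparison and not separate checks. With fewer libraries behind it, a call can be lost there although the fold change is kept. Each library held between 16059604 and 33948416 reads in genes. The lines lay apart on the leading principal component (42.6% of the variance), and cS5Alo 5 lay apart on the next (17.5%).

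Of 11566 genes tested 1498 (13.0%) had a Benjamini-Hochberg adjusted p below 0.05 in the edgeR quasi-likelihood test and are referred to as called. In cS5Ahi 787 (6.80%) were higher and 711 (6.15%) lower. The change was 2-fold or more for 299 of the former and 273 of the latter. Called or not, 689 genes (5.96% of the 11566 tested) were higher without overlap between the libraries of the lines. Likewise 578 (5.00% of the 11566) were lower without overlap. The count was 764 (496 higher and 268 lower) with the Y-linked covariate and 713 (421 and 292, of 11971 tested) in the 7 libraries with high Xist. It was 375 (236 and 139) in a test against a fold of 1.5 and 2181 without cS5Alo 5. Gene lists are read against the shares of all genes in the fit of the 10 libraries without a covariate. Fewer genes over all were called with the covariate, in the 7 libraries and against the 1.5-fold change. A smaller list count there thus does not by itself set a list apart from other genes. In the lists for which no member is given as called in 1 direction, 0 to 4 members had an unadjusted p under 0.05 in that direction, and DESeq2 called 0 to 2 and limma voom 0 to 4. The median log2 fold change over all genes was -0.00275.

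**Figure D1:**
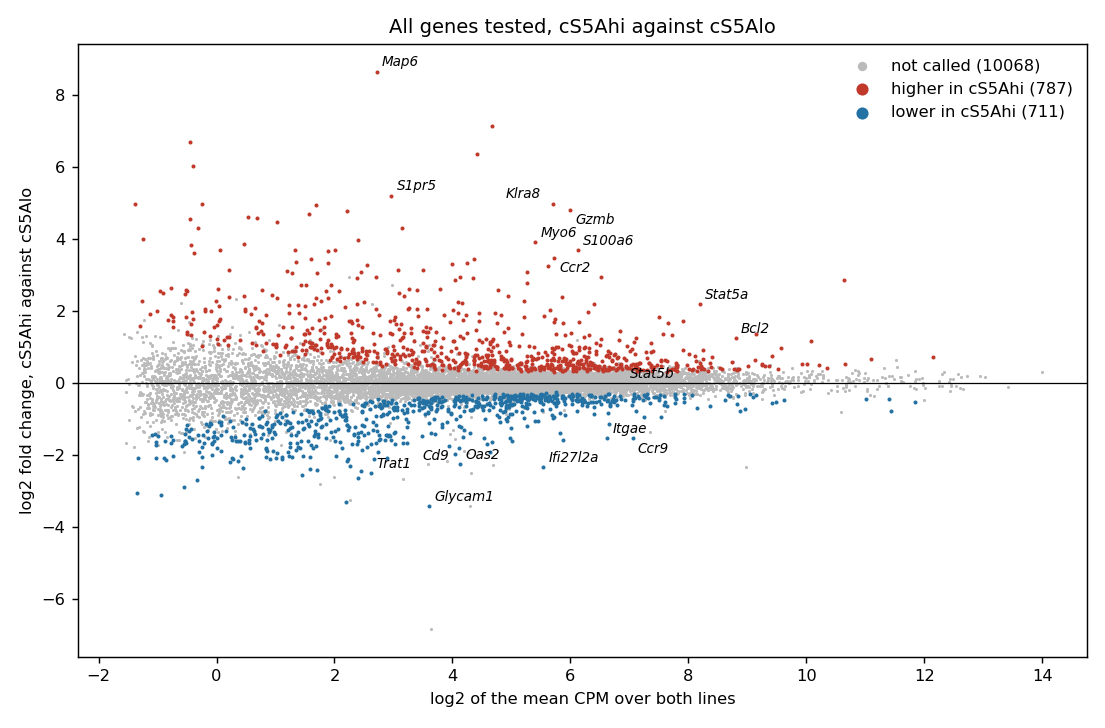
Log2 fold change of cS5Ahi against cS5Alo for the 11566 genes tested (vertical axis) against the log2 of the mean CPM over both lines (horizontal axis). Red points are the 787 genes called higher in cS5Ahi, blue points the 711 called lower and grey points those not called; Stat5a lies among the abundant genes that rose and Stat5b at a fold change near 0.

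Stat5a itself, the gene that checks the labels, was higher in every cS5Ahi library than in any cS5Alo library. It stood at 429, 397, 505, 448 and 625 CPM in cS5Ahi 1 to 5 and at 113, 116, 104, 99.0 and 98.7 CPM in cS5Alo 1 to 5. The means were 481 ± 89.7 and 106 ± 7.79 CPM (SD, n = 5 each), beside 83.1 ± 10.2 CPM in WT. The log2 fold change was 2.18 ± 0.13 (SE; adjusted p = 6.81e-09). A two-sided exact permutation test on the difference of mean log2 CPM, 2.17, gave p = 0.00794, the smallest that 5 against 5 libraries allow. Reads of the transgene and of the endogenous gene cannot be told apart in these counts. Stat5b, the close relative on the same chromosome, was at 119.5 ± 12.8 CPM in cS5Ahi and 122 ± 12.2 CPM in cS5Alo, with overlapping libraries and no call (log2 fold change -0.03 ± 0.11, adjusted p = 0.907). Of 7 STAT genes tested Stat5a alone was called. None of the 4 JAK kinase genes was called; Jak1, the most abundant of them, stood at 1116 ± 77.0 CPM in cS5Ahi and 1004 ± 104 CPM in cS5Alo.

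Most genes known as STAT5 targets rose in cS5Ahi. Of 31 tested, 21 rose, 1 fell and 9 were not called, with a median log2 fold change of 0.91 over all 31. In the 7 libraries with high Xist 18 rose and none fell, with the Y-linked covariate 19 rose and 1 fell, and 13 passed a test against a fold of 1.5. The share called higher over all genes was 6.80% in the main fit. Over all genes the number called higher went from 787 to 496 with the covariate, 421 in the 7 libraries and 236 against a fold of 1.5. The members span receptors, feedback inhibitors, survival proteins, cell cycle regulators and effectors.

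Il2ra, which encodes the alpha chain of the interleukin 2 receptor, had the smallest adjusted p of the list. It stood at 59.5, 60.1, 51.0, 68.7 and 67.6 CPM in cS5Ahi 1 to 5 and 13.9, 13.2, 11.7, 13.0 and 11.8 CPM in cS5Alo 1 to 5. The lines were well separated, with the lowest cS5Ahi library more than 3 times the highest cS5Alo library, and the log2 fold change was 2.27 ± 0.11 (adjusted p = 8.11e-10). Il2rb, for the beta chain that interleukins 2 and 15 share, was at 813 CPM against 318 CPM (log2 fold change 1.35 ± 0.12). The common gamma chain gene Il2rg was not called (log2 fold change 0.07), nor was Il7r (0.25). Tbx21, the gene of the transcription factor T-bet, had 51.9, 48.6, 59.6, 55.9 and 72.5 CPM in cS5Ahi and 19.6, 20.7, 12.8, 13.8 and 14.8 CPM in cS5Alo, without overlap (log2 fold change 1.82 ± 0.15).

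Feedback inhibitors of JAK-STAT signalling include genes that STAT5 is known to induce. Of 20 genes tested 3 rose and 1 fell (20% called against 13.0% of all genes), at a median log2 fold change of 0.17. The 3 that rose, Cish, Socs1 and Socs2, were already counted among the STAT5 targets above. Socs2, a suppressor of cytokine signalling, was at 39.1, 37.9, 43.2, 59.5 and 41.5 CPM in cS5Ahi 1 to 5 and 10.98, 16.0, 13.7, 12.2 and 7.52 CPM in cS5Alo 1 to 5. The lines did not overlap, cS5Ahi 4 stood above its group, and the log2 fold change was 1.87 ± 0.18 (adjusted p = 1.82e-06). Cish, the classical STAT5-induced inhibitor, was at 13.5, 12.5, 21.6, 21.1 and 16.1 CPM in cS5Ahi and 8.53, 7.34, 4.28, 5.75 and 6.15 CPM in cS5Alo, again without overlap (log2 fold change 1.4 ± 0.20, adjusted p = 1.29e-04). Socs1 rose as well (log2 fold change 1.04 ± 0.18), whereas Socs3 had 0.17 and was not called. Usp18, which restrains type I interferon receptors and is itself induced by interferon, fell from 49.3 ± 9.12 to 25.1 ± 3.75 CPM.

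The STAT5 core motif TTCNNNGAA, which reads the same on both strands, was searched in promoter windows of RefSeq (build GRCm38.p6, which is not the mm9 build of the counts). Each window holds 300 bases, from 250 before to 50 after a gene's start. Of the 22 called targets 18 had a window, and 5 of these held a match (Cish, Gzmb, Ifng, Il18r1 and Bcl6), as did 4 of 8 targets that were not called. Over all 32851 windows 8.30% held a match, and 9.55% of 27025 genes. A match describes the letters and no binding was measured. The 4 called targets with the most matches, then the smallest adjusted p, are shown because they include a feedback inhibitor, a receptor and an effector that rose and the target that fell; capitals mark the matches. The windows are chr9:107296409-107296708 on the + strand for Cish, chr1:40465756-40466055 on the + strand for Il18r1, chr14:56262285-56262584 on the - strand for Gzmb and chr16:23981234-23981533 on the - strand for Bcl6, each 5′ to 3′ along its gene.
Cish: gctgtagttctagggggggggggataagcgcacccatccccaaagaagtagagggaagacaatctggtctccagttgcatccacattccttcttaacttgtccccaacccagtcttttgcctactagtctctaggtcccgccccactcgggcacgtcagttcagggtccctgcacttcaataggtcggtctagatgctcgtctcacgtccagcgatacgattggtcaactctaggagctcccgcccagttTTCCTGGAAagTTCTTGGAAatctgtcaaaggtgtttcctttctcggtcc
Il18r1: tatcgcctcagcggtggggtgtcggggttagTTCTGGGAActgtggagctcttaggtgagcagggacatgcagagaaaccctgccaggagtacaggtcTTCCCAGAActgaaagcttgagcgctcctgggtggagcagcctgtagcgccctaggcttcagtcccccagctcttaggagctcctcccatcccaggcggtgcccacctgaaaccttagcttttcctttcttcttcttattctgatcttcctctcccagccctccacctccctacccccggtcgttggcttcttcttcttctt
Gzmb: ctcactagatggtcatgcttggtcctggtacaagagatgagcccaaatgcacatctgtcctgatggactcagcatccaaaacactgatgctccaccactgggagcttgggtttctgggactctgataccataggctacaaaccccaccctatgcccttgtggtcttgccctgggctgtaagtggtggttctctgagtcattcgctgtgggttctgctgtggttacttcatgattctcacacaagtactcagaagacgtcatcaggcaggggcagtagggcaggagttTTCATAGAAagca
Bcl6: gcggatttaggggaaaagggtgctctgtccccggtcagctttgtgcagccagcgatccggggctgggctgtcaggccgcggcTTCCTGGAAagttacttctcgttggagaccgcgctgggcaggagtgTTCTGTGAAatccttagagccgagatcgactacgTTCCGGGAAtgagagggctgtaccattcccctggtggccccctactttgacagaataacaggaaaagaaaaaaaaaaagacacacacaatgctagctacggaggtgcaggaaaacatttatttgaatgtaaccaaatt

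Cish and Il18r1 hold 2 matches each, Gzmb 1 and Bcl6 3. The first 3 rose, by 1.4, 1.35 and 4.81 on the log2 scale. Bcl6, which encodes a transcriptional repressor of follicular helper T cells and germinal centre B cells, was the called target that fell, from 31.8 CPM in cS5Alo to 20.0 CPM in cS5Ahi (log2 fold change -0.67 ± 0.13, adjusted p = 0.00265). It was not called in the 7 libraries with high Xist (adjusted p = 0.0592).

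**Figure D2:**
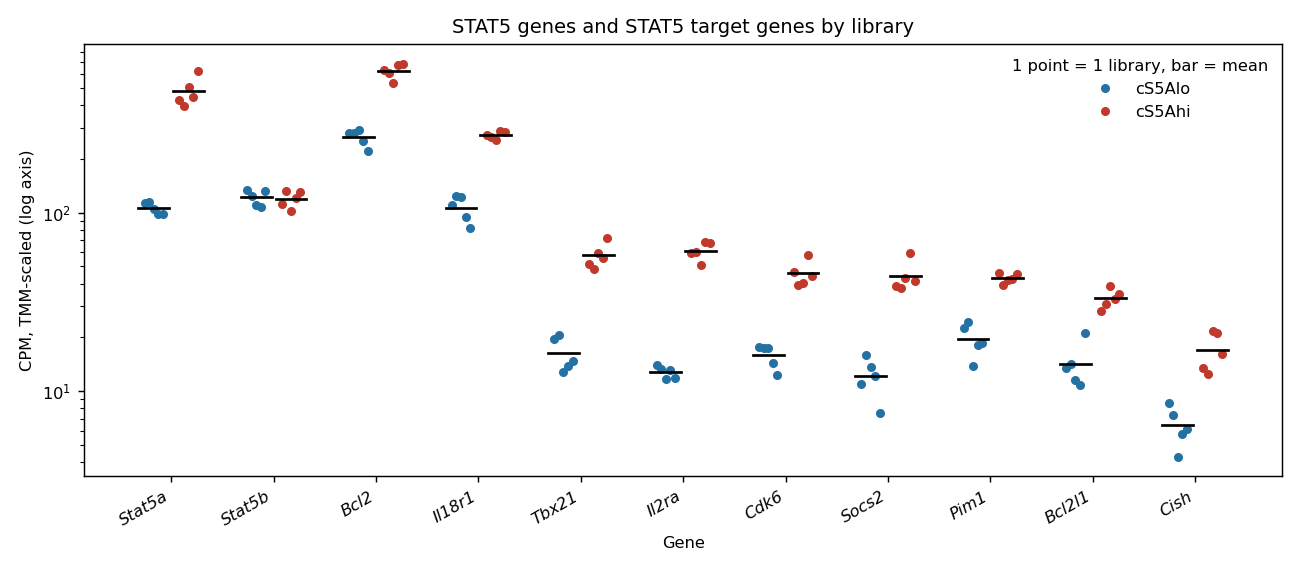
CPM on a log axis (vertical) of Stat5a, Stat5b and 9 known STAT5 target genes in each library; each point is 1 library, blue for cS5Alo and red for cS5Ahi, and black bars are group means. The cS5Ahi points lie above all cS5Alo points for every gene shown other than Stat5b.

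Receptors for inflammatory cytokines moved in both directions. Of 29 cytokine receptor genes tested 10 rose and 4 fell (median log2 fold change 0.27). Il12rb2, the signalling chain of the interleukin 12 receptor, was at 44.7, 33.1, 29.3, 36.9 and 36.1 CPM in cS5Ahi 1 to 5 and 6.80, 4.01, 4.23, 5.31 and 3.40 CPM in cS5Alo 1 to 5. Every cS5Ahi library exceeded every cS5Alo library (log2 fold change 2.92 ± 0.18, adjusted p = 1.21e-08). Il18r1, a chain of the interleukin 18 receptor, was even within the lines, at 273, 267, 258, 286 and 283 CPM against 111, 125, 122, 94.5 and 81.7 CPM (log2 fold change 1.35 ± 0.12). Its partner Il18rap (log2 fold change 1.85), Il10ra (1.12) and Ifngr1 (0.55), the ligand-binding chain of the interferon gamma receptor, rose as well. The receptors that fell were Csf2rb (log2 fold change -1.62), Ifngr2 (-0.86), Il6st (-0.45) and Il27ra (-0.40). With the Y-linked covariate 9 receptor genes rose and 2 fell, and in the 7 libraries with high Xist 8 rose and 2 fell. The calls of Il6st (adjusted p = 0.11 and 0.104), Il27ra (0.302 and 0.354) and Ifngr1 (0.0684 and 0.0895) were lost in both settings.

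Survival genes and death genes of the BCL2 family both rose. Of 15 tested, 5 rose and 1 fell (median log2 fold change 0.44), and in both settings 4 rose and none fell. Bcl2, which protects lymphocytes from apoptosis, had 629, 612, 537, 672 and 687 CPM in cS5Ahi and 282, 282, 291, 253 and 221 CPM in cS5Alo. The lines did not overlap and differed by 1.24 ± 0.11 on the log2 scale (adjusted p = 7.84e-07). Bcl2l1, the gene of the protective BCL-XL, was at 33.1 ± 4.13 CPM against 14.2 ± 4.09 CPM. Bcl2l11, which encodes the pro-apoptotic BIM, was at 177, 153, 155, 174 and 183 CPM against 94.5, 82.3, 77.9, 85.0 and 115 CPM, also without overlap (log2 fold change 0.89 ± 0.11). Pmaip1 and Bbc3, for the pro-apoptotic NOXA and PUMA, rose (log2 fold changes 0.61 and 1.03). Mcl1, another protective member, was not called (log2 fold change 0.01), and Bcl2a1b fell (-0.80); its near-identical paralogs make that count uncertain. The calls of Pmaip1 (adjusted p = 0.267 with the covariate and 0.377 in the 7 libraries) and Bcl2a1b (0.059 and 0.113) were the ones lost. The log2 fold change of Pmaip1 was smaller there (0.40 and 0.39), while that of Bcl2a1b was not (-0.97 and -0.95).

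Many genes of the cytotoxic effector list rose in cS5Ahi. Of 33 tested, 16 rose, none fell and 17 were not called (median log2 fold change 0.50), against 6.80% of all genes called higher. With the Y-linked covariate 14 were called higher, and 12 in the 7 libraries with high Xist. The list is broader than killing molecules, as it holds S100a6, and its members Gzmb, Prf1 and Ifng are also among the STAT5 targets above. Gzmb, which encodes the protease granzyme B, was at 196, 102, 120.2, 115 and 81.0 CPM in cS5Ahi 1 to 5 and 3.76, 3.51, 5.45, 5.16 and 4.12 CPM in cS5Alo 1 to 5. The lines lay far apart, WT had 3.91 ± 2.02 CPM, and the log2 fold change between the lines was 4.81 ± 0.23 (adjusted p = 1.40e-09). Fasl, the ligand of the death receptor FAS, had 29.4, 23.7, 33.5, 31.0 and 26.8 CPM in cS5Ahi and 4.63, 4.74, 3.89, 4.28 and 2.45 CPM in cS5Alo (log2 fold change 2.84 ± 0.17). S100a6, a calcium-binding protein gene of activated and memory cells, had 128, 104, 186, 104 and 128 CPM against 10.9, 14.1, 9.09, 10.1 and 6.09 CPM, cS5Ahi 3 being the highest (log2 fold change 3.68 ± 0.21).

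Other effector genes rose over a wide range of levels. The chemokine gene Ccl5 went from 385 to 2806 CPM, granzyme M (Gzmm) from 21.2 to 162 CPM and Lgals1, for galectin 1, from 112 to 371 CPM. Perforin (Prf1), which forms the pore that granzymes need, rose by less, from 46.2 to 84.9 CPM. Ifng, for interferon gamma, rose at a low level, from 0.718 to 4.69 CPM (log2 fold change 2.72 ± 0.42). Gzma (log2 fold change 1.11), Gzmk (-0.51), Tnf (-0.25), Ccl3 (-0.10) and Xcl1 (-0.64) were not called.

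Most genes of memory CD8 T cells rose in cS5Ahi. Of 24 tested, 17 rose and 4 fell, at a median log2 fold change of 1.21. The number that rose was 17 without any single library and 16 in the 7 libraries with high Xist and with the Y-linked covariate, and 15 passed a test against a fold of 1.5. The chemokine receptor gene Ccr2 had 106, 103, 97.6, 102 and 77.0 CPM in cS5Ahi 1 to 5 and 7.89, 8.86, 9.87, 10.1 and 7.22 CPM in cS5Alo 1 to 5, without overlap (log2 fold change 3.46 ± 0.13, adjusted p = 4.75e-11). Within cS5Ahi the lowest library was cS5Ahi 5. Cd44, the hyaluronan receptor used to tell memory from naive cells, rose from 105 to 225 CPM and Cxcr3 from 121 to 301 CPM.

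Eomes, the T-box factor of memory CD8 and natural killer (NK) cells, rose without overlap, with 148, 137, 145, 170.5 and 187 CPM in cS5Ahi and 62.9, 79.5, 59.95, 68.3 and 73.7 CPM in cS5Alo (log2 fold change 1.19 ± 0.11). Cx3cr1, a receptor of effector memory cells, rose at a low level, from 1.08 to 6.15 CPM (log2 fold change 2.55 ± 0.38). The 4 members that fell were Slamf6 (log2 fold change -0.97), Id3 (-0.96), Itga4 (-0.74) and Cxcr6 (-0.52). Slamf6 and Id3 mark memory cells that keep stem-like features, and ITGA4 and CXCR6 act in entry and residence in tissues. The Itga4 call was lost in both settings (adjusted p = 0.207 and 0.124). Il7r and Tcf7 were not called (log2 fold changes 0.25 and 0.18).

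NK cell receptor genes, which CD8 T cells can also express, rose for the most part. Of 19 tested, 12 rose and 1 fell (median log2 fold change 1.39), and 11 rose and 1 fell in both settings. Klrc1, for the inhibitory receptor NKG2A, had 59.7, 30.4, 34.3, 37.6 and 27.6 CPM in cS5Ahi 1 to 5 and 3.54, 5.68, 3.35, 2.75 and 1.79 CPM in cS5Alo 1 to 5. cS5Ahi 1 was the highest, and no library of the lines overlapped (log2 fold change 3.44 ± 0.27, adjusted p = 4.02e-07). Klrc2, for the activating NKG2C, went from 1.24 ± 0.258 to 7.22 ± 2.44 CPM. Klrd1, for CD94, the partner of both, was the member that fell, from 194 to 130.1 CPM (log2 fold change -0.58 ± 0.15, adjusted p = 0.0163). Its call was lost in both settings (adjusted p = 0.154 and 0.195), and the 1 member lower there was Fcer1g.

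The Ly49 entry that the files name Klra9 and that bundles transcripts of Klra8 had 85.3, 44.7, 108, 191 and 75.9 CPM in cS5Ahi and 3.58, 2.79, 3.31, 3.54 and 2.81 CPM in cS5Alo (log2 fold change 4.97 ± 0.37). cS5Ahi 4 held about 4 times the level of cS5Ahi 2. Klra5 (log2 fold change 3.65), Klra10 (2.17), Klra4 (1.94), Klra3 (1.39), Klra6 (0.94) and Klra7 (0.93) rose as well. These genes are near-identical copies whose counts are uncertain, and reads common to several of them could have been dropped or misplaced.

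Genes listed as NK cell markers overlap with those above, and part of them rose. Of 11 tested, 5 rose (Klrb1c, Klre1, Klri2, Eomes and Prf1) and none fell, whereas in both settings 4 rose and 1 fell. Klrb1c, for NK1.1, was at 29.0, 22.6, 27.5, 12.6 and 9.70 CPM in cS5Ahi and 2.68, 2.97, 2.38, 1.97 and 1.55 CPM in cS5Alo, and Klre1 at 29.9, 18.9, 22.9, 43.7 and 26.2 CPM against 6.03, 7.38, 8.36, 3.54 and 4.60 CPM. The 14 listed markers, those under the filter on low counts included, were also summed. Their sum was 317.4 to 328.2 CPM in cS5Ahi and 152.6 to 181.8 CPM in cS5Alo. Eomes, at a mean of 157.4 CPM against 68.9 CPM, and Prf1, at 84.9 CPM against 46.2 CPM, made up much of it. Both are also among the STAT5 targets above. Ncr1, which encodes the NK-defining receptor NKp46, had 2 to 15 reads per cS5Ahi library and 4 to 20 per cS5Alo library, too few to be tested. Fcer1g, Tyrobp and Fcgr3, adaptor and Fc receptor genes of NK and myeloid cells, had log2 fold changes of -0.66, -0.34 and -0.71 and were not called. Fcer1g was called lower with the Y-linked covariate (adjusted p = 0.0148) and in the 7 libraries (0.0296), and Klri2 was not called there (0.163 and 0.236). In bulk RNA a difference in the number of cells of a kind and a difference in RNA per cell cannot be told apart.

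**Figure D3:**
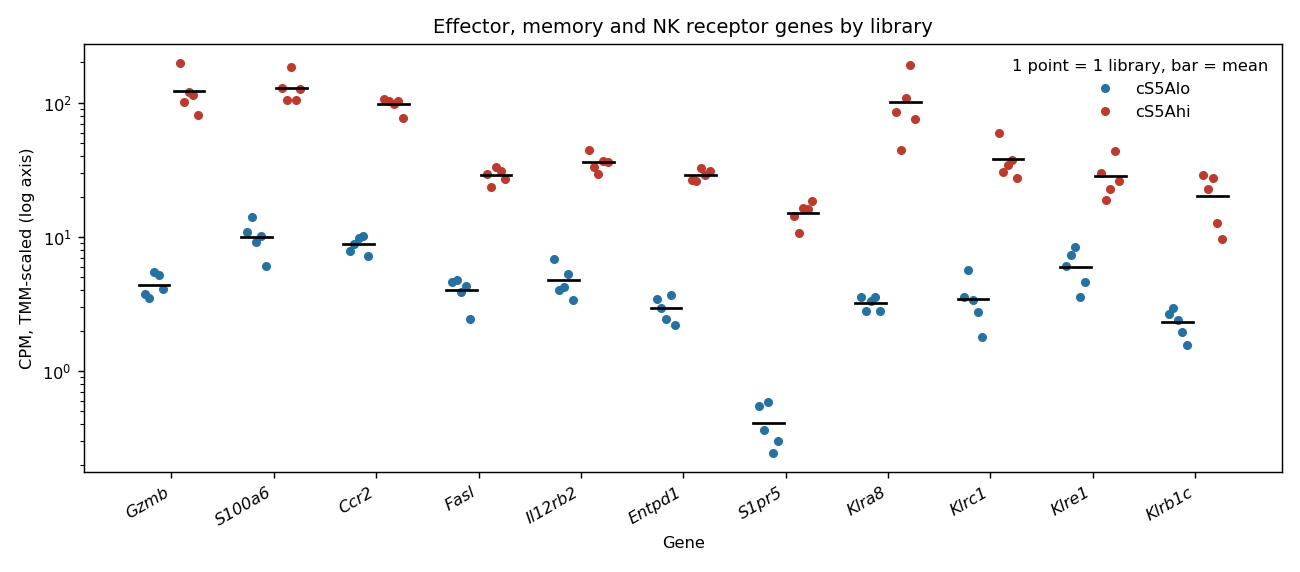
CPM on a log axis (vertical) of 11 effector, memory and NK receptor genes in each library; each point is 1 library, blue for cS5Alo and red for cS5Ahi, and black bars are group means. No cS5Alo point reaches a cS5Ahi point for any of the 11 genes.

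Homing and adhesion genes divided between the lines. Of 33 tested, 8 rose and 6 fell, and the median log2 fold change was 0.01; in both settings 8 rose and 3 fell. S1pr5, a receptor for sphingosine 1-phosphate that guides egress of NK and effector cells, was at 14.2, 10.7, 16.3, 16.1 and 18.6 CPM in cS5Ahi 1 to 5 and 0.544, 0.362, 0.584, 0.246 and 0.298 CPM in cS5Alo 1 to 5. It was the second largest rise under the naming rule (log2 fold change 5.20 ± 0.24, adjusted p = 5.45e-10). The integrin genes Itgb3 and Itgb1 rose (log2 fold changes 1.36 and 1.23). Ccr9, a gut-homing receptor, fell, with 46.9, 97.8, 62.4, 72.3 and 60.4 CPM in cS5Ahi and 215, 171, 201, 180.3 and 222 CPM in cS5Alo (log2 fold change -1.54 ± 0.16). Itgae, for CD103, which binds E-cadherin, had 50.5, 66.4, 53.5, 40.3 and 41.7 CPM against 139, 152, 166, 145 and 135 CPM and fell (log2 fold change -1.55 ± 0.13). Neither of these genes overlapped between the lines. S1pr1, which keeps naive cells recirculating, was not called (log2 fold change -0.19).

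Genes of naive and quiescent T cells fell in part. Of 28 tested, 8 fell, 1 rose and 19 were not called (median log2 fold change -0.04), against 6.15% of all genes called lower, and 5 fell and none rose in both settings. Those that fell include Itgae and Ccr9, given above with homing and adhesion, which stayed called in both settings. Btg1, an antiproliferative gene of resting lymphocytes, stood at 371, 355, 334, 352 and 309 CPM in cS5Ahi and 598, 579, 617, 604 and 574 CPM in cS5Alo (log2 fold change -0.79 ± 0.09, adjusted p = 1.69e-05). Lef1 (log2 fold change -0.61), Ccr7 (-0.40), Igfbp4 (-0.43) and Dapl1 (-0.34) fell with overlapping libraries, and without cS5Ahi 1 the list held 4 that fell. Lef1 (adjusted p = 0.43 and 0.373), Ccr7 (0.102 and 0.112) and Dapl1 (0.352 and 0.456) were not called in either setting. Tcf7, Satb1, Klf2 and Foxo1, regulators of the naive state, were not called (log2 fold changes 0.18, 0.08, -0.04 and 0.01).

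Among 31 T cell transcription factor genes 9 rose and 6 fell (median log2 fold change 0.18). Runx2 had 93.2, 95.0, 66.6, 106 and 83.4 CPM in cS5Ahi and 28.9, 32.8, 23.9, 21.7 and 33.5 CPM in cS5Alo (log2 fold change 1.66 ± 0.14). Bhlhe40, a factor of activated and tissue-resident T cells, had 13.8, 13.9, 11.8, 13.5 and 9.29 CPM against 4.04, 3.94, 3.74, 4.38 and 4.12 CPM (log2 fold change 1.62 ± 0.15). Both were without overlap, as was Prdm1, for the effector factor BLIMP1, at 12.4 ± 0.862 CPM against 5.27 ± 0.534 CPM. Id2 rose (log2 fold change 0.86) while Id3 fell (-0.96), and Tox, a factor of exhausted cells, fell (-0.65). In both settings 7 rose and 2 fell, and Tox was not among them (adjusted p = 0.143 and 0.0592).

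Inhibitory receptor genes showed no common direction, with 3 of 22 higher, 4 lower and a median log2 fold change of -0.16; in both settings 3 were higher and 1 lower. Entpd1, for the ectonucleotidase CD39, had 26.6, 26.2, 32.8, 28.9 and 30.8 CPM in cS5Ahi and 3.45, 2.93, 2.43, 3.69 and 2.21 CPM in cS5Alo, without overlap (log2 fold change 3.30 ± 0.16, adjusted p = 6.04e-10). Nt5e, for CD73, which acts after CD39 in the breakdown of ATP to adenosine, rose from 60.9 to 93.5 CPM. Lair1, a collagen receptor, went from 16.1 ± 1.56 to 33.6 ± 2.83 CPM. Cd200 fell from 10.9 ± 2.40 to 3.59 ± 1.85 CPM and was the one still called lower (adjusted p = 0.0208 and 0.00247). Pdcd1, for PD-1, was lower at 0.294 against 0.908 CPM with overlapping libraries, a call lost in both settings (adjusted p = 0.301 and 0.345). Ctla4, Lag3, Havcr2 and Tigit were not called (log2 fold changes -0.53, -0.74, -0.71 and 0.21).

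Genes of T cell receptor signalling stood near the background. Of 31 tested, 2 rose and 3 fell (16.13% called against 13.0% of all genes). With the Y-linked covariate 2 rose and none fell, and in the 7 libraries with high Xist none was called. Nfatc2 went from 79.5 ± 20.4 to 134 ± 8.85 CPM and Sla, an adaptor that limits receptor signalling, from 63.3 ± 2.45 to 85.0 ± 11.8 CPM, while Dgka, a lipid kinase that damps it, fell from 851 ± 74.5 to 587 ± 76.6 CPM. Nfatc2 kept its call with the covariate (adjusted p = 0.0255) and not in the 7 libraries (0.0626), and Sla (0.113 and 0.175) and Dgka (0.0817 and 0.0713) lost theirs in both. Cd3d and Cd3g fell (log2 fold changes -0.37 and -0.35), calls that were lost with the Y-linked covariate (adjusted p = 0.0652 and 0.162), in the 7 libraries with high Xist (0.0869 and 0.212) and without 1 or another library. Cd8a and Cd8b1, the genes of the CD8 chains, and Cd3e, of another CD3 chain, were not called (log2 fold changes 0.08, 0.13 and 0.21).

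Immediate early genes, transcribed within minutes of receptor stimulation or tissue handling, moved both ways, 4 of 20 higher and 6 lower (median log2 fold change -0.36). Egr3 was at 6.22, 10.3, 5.09, 10.4 and 6.29 CPM in cS5Ahi and 20.6, 20.1, 18.8, 11.6 and 12.1 CPM in cS5Alo, and fell (log2 fold change -1.12 ± 0.22, adjusted p = 0.0028). Egr1 and Egr2, of the same family, fell too (log2 fold changes -0.73 and -0.88). Ier3 rose from 6.26 ± 0.951 to 14.0 ± 3.64 CPM and Fosl2 from 16.8 ± 2.35 to 27.1 ± 1.69 CPM. With the Y-linked covariate 3 rose and 1 fell, and in the 7 libraries with high Xist 2 rose and 3 fell. Egr3 was not called with the covariate (adjusted p = 0.0653; 0.0454 in the 7 libraries), and Egr1 in neither setting (0.207 and 0.128).

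Interferon-stimulated genes that were called were all lower in cS5Ahi. Of 48 tested, 16 fell, none rose and 32 were not called, with 41 of 48 fold changes negative and a median log2 fold change of -0.39. The count was 12 with the Y-linked covariate, 11 in the 7 libraries with high Xist and 12 to 20 without any single library. Ifi27l2a was at 17.3, 13.3, 18.0, 15.9 and 11.8 CPM in cS5Ahi 1 to 5 and 54.6, 70.0, 66.0, 119 and 80.6 CPM in cS5Alo 1 to 5 (log2 fold change -2.35 ± 0.19, adjusted p = 3.37e-07). Oas2, an antiviral oligoadenylate synthetase, had 4.74, 7.77, 6.02, 7.34 and 4.01 CPM against 17.4, 22.03, 19.6, 36.9 and 48.5 CPM (log2 fold change -2.27 ± 0.28). Neither overlapped between the lines, and cS5Alo 4 and 5 were the highest libraries for both. The transcription factor genes Irf7 (log2 fold change -0.84) and Irf9 (-0.61) fell, as did the ubiquitin-like Isg15 (-1.22) and Ifit1 (-1.25, not called in the 7 libraries, adjusted p = 0.154). Stat2 was not called (log2 fold change -0.22). Of 21 genes of MHC class I presentation, many of which respond to interferon, Tap1 alone was called, at 124 ± 9.26 CPM against 159 ± 13.6 CPM, a call lost in both settings (adjusted p = 0.197 and 0.231), where no member was called. Without cS5Alo 5, 6 members fell and 2 rose.

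Some cell cycle genes rose in cS5Ahi, and most of these calls depended on the libraries used. In edgeR's quasi-likelihood test, of 45 DNA replication genes 12 rose and none fell (median log2 fold change 0.27). None was called with the Y-linked covariate or in the 7 libraries with high Xist, and between 3 (without cS5Ahi 1) and 15 (without cS5Alo 5) were called when 1 library was left out. Cdc6, which loads the replicative helicase, was at 7.22, 7.26, 8.85, 5.12 and 5.66 CPM in cS5Ahi and 3.17, 1.63, 1.80, 4.53 and 4.60 CPM in cS5Alo (adjusted p = 0.0113, and 0.304 in the 7 libraries). Of 56 mitosis genes 6 rose and 1 fell (median 0.39), and the 12.5% called stood near the 13.0% of all genes. In the 7 libraries 1 was higher and 1 lower, and 2 to 14 were higher without any single library. Cenpa, the centromeric histone, was the one that fell, from 27.8 ± 3.35 to 17.4 ± 1.08 CPM. Mki67 was higher, at 94.4 against 47.8 CPM, with overlapping libraries, a call lost in both settings (adjusted p = 0.218 and 0.382). The sum of all mitosis genes was 1387 to 1619 CPM in cS5Ahi and 1113 to 1775 CPM in cS5Alo, where cS5Alo 5 was the highest.

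Cyclins and their kinases gave 7 higher and 1 lower of 19 tested, but 3 higher with the Y-linked covariate, 2 higher in the 7 libraries and none lower in either. Cdk6, a G1 kinase and known STAT5 target, was at 46.7, 39.5, 40.2, 57.6 and 44.4 CPM in cS5Ahi and 17.7, 17.3, 17.5, 14.3 and 12.3 CPM in cS5Alo, without overlap (log2 fold change 1.52 ± 0.13, adjusted p = 7.87e-07), and stayed called in the 7 libraries (adjusted p = 2.59e-05). Ccnd2 and Ccnd3, the D cyclins it pairs with, rose (log2 fold changes 0.48 and 0.56), calls that were lost in the 7 libraries (adjusted p = 0.0813 and 0.0951) and for Ccnd3 with the covariate (0.0861). E2f2 went from 7.28 ± 0.650 to 15.5 ± 3.03 CPM and Cdkn1a, for the inhibitor p21, from 2.38 ± 0.831 to 5.95 ± 1.67 CPM, the former called in the 7 libraries (adjusted p = 0.00531) and the latter not (0.0706, and 0.057 with the covariate).

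Growth and metabolic genes changed by less. Of 38 genes of MYC and ribosome biogenesis 7 rose and none fell (median log2 fold change 0.20), with 2 higher in the 7 libraries and none past a test against a fold of 1.5. Myc itself was at 271, 259, 211, 284 and 266 CPM in cS5Ahi and 183, 166, 179.7, 205 and 196 CPM in cS5Alo (log2 fold change 0.47 ± 0.10). Dkc1, of the telomerase and rRNA modification complexes, rose (log2 fold change 0.66), as did Tfrc, the transferrin receptor (0.69), whose call was lost in the 7 libraries (adjusted p = 0.0845). Of 24 glycolysis genes 6 rose and 1 fell, and in both settings 2 rose and 1 fell. Pfkp rose from 65.3 ± 3.69 to 92.2 ± 9.13 CPM and Ldhb fell from 7.48 ± 1.15 to 2.31 ± 0.429 CPM. Gapdh rose (log2 fold change 1.12), but its many processed copies make its count uncertain. Of 28 genes of cholesterol and fatty acid synthesis Fasn rose (log2 fold change 0.36) and Scd1 fell (-1.49), a share of 7.143% called, under the background; the Fasn call was lost in both settings (adjusted p = 0.197 and 0.285). Of 36 genes known from lymphoma 5 rose and 5 fell, with 6 higher under the covariate, 5 higher in the 7 libraries and 2 lower in both. Among those that rose was Pim1, a survival kinase and STAT5 target, at 45.9, 39.5, 41.95, 42.4 and 45.2 CPM in cS5Ahi and 22.4, 24.4, 13.9, 18.2 and 18.6 CPM in cS5Alo (log2 fold change 1.14 ± 0.13).

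**Figure D4:**
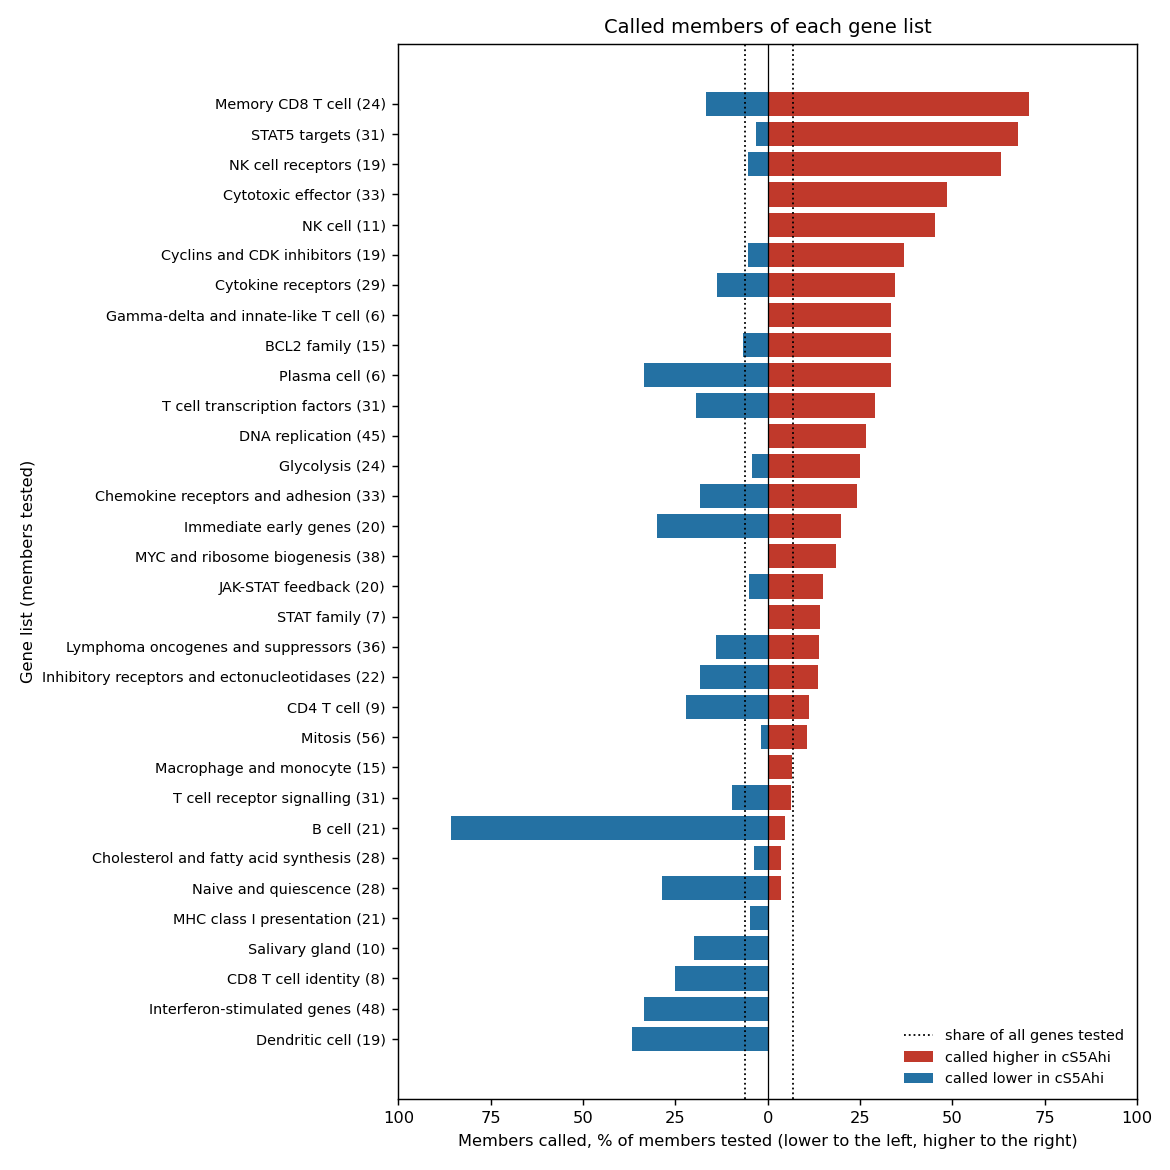
Members called higher (red, to the right) and lower (blue, to the left) in cS5Ahi as a percentage of the members tested of each gene list (numbers in parentheses). Dotted lines mark the shares over all genes, 6.80% higher and 6.15% lower; the memory, STAT5 target and NK receptor lists reach farthest to the right and the B cell list farthest to the left.

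Several of the 12 largest rises lay outside these lists. Map6, a microtubule-stabilising protein gene known from neurons, had 1760 reads in the 5 cS5Ahi libraries and 3 reads in the 5 cS5Alo libraries, a ratio of 435 at equal depth (95% interval 149 to 2111 for counting error alone). Its levels in cS5Ahi 1 to 5 were 5.92, 10.97, 12.3, 22.1 and 14.2 CPM, with WT at 0.303 ± 0.260 CPM. Myo6, an unconventional myosin, had the smallest p of all genes named, at 73.5, 86.5, 78.5, 71.2 and 87.8 CPM in cS5Ahi and 5.67, 5.03, 6.22, 5.46 and 4.30 CPM in cS5Alo (log2 fold change 3.89 ± 0.12, adjusted p = 5.97e-12). Both lines were tight around their means. Tafa3, for a secreted chemokine-like protein, had 16.7, 14.3, 17.4, 18.6 and 17.2 CPM against 1.09, 0.796, 0.924, 0.443 and 1.01 CPM. Fcgr2b, the inhibitory Fc receptor, had 38.9, 30.6, 44.2, 32.6 and 27.4 CPM against 3.08, 4.05, 3.65, 2.66 and 3.82 CPM, a rise in a gene best known from B cells and myeloid cells. The entry of Lilr4b, an inhibitory receptor with near-identical relatives, rose from 1.09 ± 0.336 to 10.6 ± 3.02 CPM.

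Among the 12 largest falls, Trat1, a transmembrane adaptor of the T cell receptor, was at 1.21, 1.81, 1.46, 2.71 and 1.96 CPM in cS5Ahi and 9.62, 9.70, 12.4, 10.2 and 10.5 CPM in cS5Alo (log2 fold change -2.52 ± 0.20, adjusted p = 3.16e-07). Cd9, a tetraspanin, had 4.41, 9.87, 5.40, 7.74 and 5.69 CPM against 26.1, 26.9, 27.6, 27.7 and 23.6 CPM, and Xkrx, a membrane protein gene, 4.41, 9.55, 4.12, 11.3 and 9.20 CPM against 26.5, 19.3, 25.4, 26.0 and 37.9 CPM. None of these overlapped between the lines. Gprc5b, an orphan receptor gene, fell (log2 fold change -1.72), as did Clu, for the chaperone clusterin (-1.93), and Cxcl16, the ligand of CXCR6 (-2.13); the Cxcl16 call was lost with the Y-linked covariate (adjusted p = 0.057). Apol7c fell from 39.2 ± 10.6 to 10.3 ± 5.38 CPM and was likewise lost there (0.0914). Glycam1, a glycoprotein gene of high endothelial venules, fell from 22.1 ± 15.3 to 2.06 ± 1.54 CPM and was not called in the 7 libraries with high Xist (adjusted p = 0.107). Fcmr, the IgM receptor of B cells, fell from 23.9 ± 7.99 to 7.03 ± 2.29 CPM.

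Transcripts of other cells differed between the lines too. Of 21 B cell markers 18 fell and 1 rose (median log2 fold change -1.46), 14 fell in the 7 libraries with high Xist and 7 with the Y-linked covariate. Blnk, the linker of B cell receptor signalling, was at 1.24, 2.45, 4.16, 3.56 and 1.93 CPM in cS5Ahi 1 to 5 and 8.16, 10.4, 9.48, 9.74 and 7.22 CPM in cS5Alo 1 to 5, without overlap (log2 fold change -1.77 ± 0.26, adjusted p = 1.86e-04). The summed B cell markers were at 249.5 to 361.9 CPM in cS5Ahi and 428.9 to 569.4 CPM in cS5Alo, without overlap. Cd22 was the marker that rose, from 21.9 to 34.4 CPM with overlapping libraries. Of 19 dendritic cell markers 7 fell and none rose (7 lower with the covariate, 9 in the 7 libraries and 5 to 10 without any 1 library), H2-Ab1 of MHC class II from 48.3 ± 9.69 to 15.9 ± 6.16 CPM and Flt3 from 6.49 ± 2.01 to 2.09 ± 0.856 CPM. Their sum was 312.2 to 597.4 CPM against 608.4 to 875.6 CPM. Sums of both lists were thus lower in cS5Ahi, as were the interferon-stimulated genes, Cxcl16, Fcmr, Apol7c and Clu named above, and the part of B cells and dendritic cells in those falls was not tested.

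Other cell types moved less uniformly. The stromal and endothelial sum was also lower without overlap, at 146 to 192.3 CPM in cS5Ahi and 206.7 to 278.2 CPM in cS5Alo. So was the erythroid and platelet sum, at 3.27 to 8.92 CPM against 9.06 to 28.7 CPM. The macrophage and monocyte sum, which holds Ccr2, was higher without overlap, at 96.06 to 177.3 CPM against 53.99 to 82.7 CPM. Sums of the other lists in this paragraph overlapped. Of 6 plasma cell markers 2 rose and 2 fell, and in both settings 2 rose, with 1 lower under the covariate and none in the 7 libraries. Jchain, the joining chain of secreted IgM and IgA, was at 40.6, 70.5, 62.8, 31.5 and 28.2 CPM in cS5Ahi and 5.08, 7.16, 5.11, 7.87 and 14.6 CPM in cS5Alo, without overlap (log2 fold change 2.56 ± 0.34), whereas Mzb1, a chaperone of antibody secretion, fell from 2.04 ± 0.513 to 0.740 ± 0.137 CPM (adjusted p = 0.0328 with the covariate and 0.0542 in the 7 libraries). Of 15 macrophage and monocyte markers Ccr2 alone was called. In both settings 4 others were called lower, Lyz1, Lyz2, Mpeg1 and Sirpa, of which Mpeg1, for a pore-forming protein of macrophages, had adjusted p = 1.70e-04 and 5.69e-04, and without cS5Ahi 3 the count was 3. Of 6 gamma-delta T cell markers the scavenger receptor genes 5830411N06Rik and Cd163l1 rose (log2 fold changes 2.06 and 1.38), and Sox13 was called higher beside them in both settings. Of 9 CD4 T cell markers Il2ra rose, Ikzf2 (log2 fold change -1.45) and Tnfrsf4 (-0.76) fell, and Cd4 was not called (-0.79). No CD4 marker was called lower with the covariate (adjusted p = 0.231 for Ikzf2 and 0.362 for Tnfrsf4), and in the 7 libraries Ikzf2 (0.0388) and Cd4 (0.0294) were. Of 3 erythroid genes tested Hbb-b2 and Car2 fell (log2 fold changes -2.66 and -2.05); Hbb-b2 shares its entry with a near-identical globin gene. Cxcr2 was the single neutrophil marker tested (log2 fold change 0.11, not called), and Glycam1 the stromal or endothelial gene called of 4. Salivary gland transcripts, from a tissue next to cervical lymph nodes, summed to 4443 CPM in cS5Alo 5, 1198 CPM in cS5Alo 2 and 910.6 CPM in cS5Ahi 4, against 46.1 to 217.7 CPM in the other 7 libraries; 2 of 10 (Klk1 and Dcpp3) were called lower in cS5Ahi, and 1 in both settings.

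**Figure D5:**
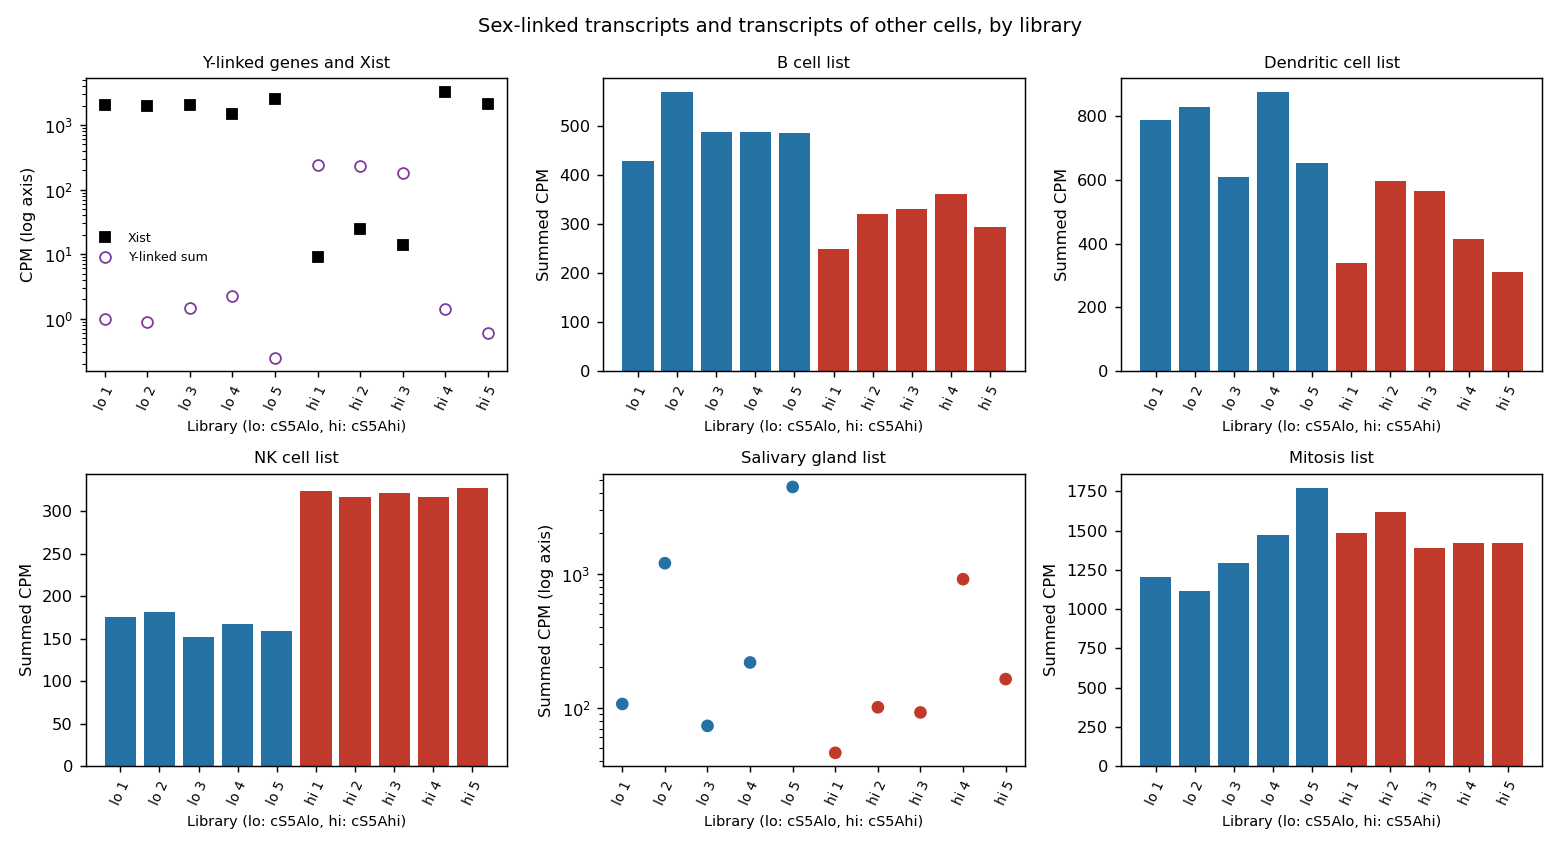
Levels per library of sex-linked transcripts (top left, log axis) and the summed CPM of 5 gene lists; the bottom middle panel has a log axis, and bars start at 0. B cell and dendritic cell sums lie lower in all cS5Ahi libraries (red) than in cS5Alo (blue). Sums of the NK list, which holds Eomes and Prf1, lie higher in all cS5Ahi libraries. The highest salivary and mitosis sums are those of cS5Alo 5.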

How the data were processed

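RNA of CD8-selected lymph node cells was counted in 15 libraries, of which the 5 cS5Ahi and 5 cS5Alo libraries were compared. The authors deposited raw counts of reads per gene, without normalization. Per the submitters' processing notes, the tools were TopHat 1.4.1, HTSeq 0.6.1p1 and cutadapt, the last without a version, and the build was mm9. Whether HTSeq counted by strand was not stated, so antisense or overlapping genes cannot be separated. Of 21025 entries per file 20657 were matched to RefSeq symbols by accession and 194 by name. The 5 summary entries of HTSeq were left out of all totals; reads outside genes made up 23.0 to 36.8% of each file. Counts of the 20 replicate pairs gave chi-square values of 10.0 to 99.5 for each degree of freedom, hence none was 1 library deposited again.

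Genes under a count of 10 (filterByExpr, total of at least 15) were left out. Counts were scaled by TMM, tested with edgeR 4.0.16 (robust quasi-likelihood, R 4.3.3) on these 10 libraries, and adjusted by Benjamini-Hochberg over all 11566 genes. CPM per gene use TMM factors and sums of markers do not. For the principal components and the correlations log2 CPM has a prior count of 2, and for the Stat5a permutation test none. edgeR estimated a biological coefficient of variation of 0.185. On simulated counts of this comparison (11469 genes) the fit recovered 43.4% of 1.5-fold, 80% of 2-fold and 100% of 4-fold changes, with 4.35% false calls. The simulation changed 99, 50 and 49 genes at these folds, a far smaller share than the 13.0% called here. It held neither the difference in Y-linked level within cS5Ahi nor a library apart like cS5Alo 5. These rates may therefore not hold for the real libraries. Named genes were Stat5a, Stat5b, the 12 largest called rises and 12 largest called falls with at least 10 CPM in the higher line and no overlap, without unnamed genes, receptor segments and pseudogenes, and up to 3 called members of each of 37 lists by adjusted p (up to 2 by CPM where none was called). Other list members are given as means and were chosen after their values were seen. The comparison and the lists were chosen with earlier results of these data known. Alternatives were other scalings and filters, DESeq2 1.42.0, voom from limma 3.58.1, a test against a 1.5-fold change, a fit over all 15 libraries, a replicate block, a Y-linked covariate, the 7 libraries with high Xist, and each library left out. T cell receptor segments were not analysed here, and a few named genes are not reported here.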

Additional observations from a re-analysis of the deposited data

Results flagged for a closer look

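In 190 sets of 5 library values, 4 held 1 library far from the other 4, and chance gives such a library in about 1 in 20 sets. Apol7c, a fall in cS5Ahi, was at 20.8 CPM in cS5Alo 5 and at 41.0 to 47.5 CPM in the other cS5Alo libraries. Fcmr was at 37.8 CPM in cS5Alo 2, which also had the highest sum of B cell markers, and at 17.5 to 22.7 CPM in the others. Socs2 was at 59.5 CPM in cS5Ahi 4 and at 37.9 to 43.2 CPM in the others of its line. Dcpp3, a salivary gland transcript, was at 5.43 CPM in cS5Alo 5, the library with the highest salivary sum, and at 1.77 to 2.79 CPM in the other cS5Alo libraries.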

How the results depend on the processing

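The count of 1498 called genes (787 higher, 711 lower) became 2492 (1273 and 1219) with limma voom, 375 (236 and 139) against a 1.5-fold change, 1035 (583 and 452) in the fit over all 15 libraries, 764 (496 and 268, of which 700 were among the 1498) with the Y-linked covariate and 713 (421 and 292, 644 among the 1498) in the 7 libraries with high Xist. Without any 1 library it was 1141 to 2181, with 614 to 1102 higher and 527 to 1079 lower; the highest values came without cS5Alo 5. DESeq2 called 1946, DESeq2 size factors gave 1497, a filter of 1 CPM 1426 and no filter 1490. With library size as the sole scaling 669 were higher and 892 lower. Ddx3y turned to a log2 fold change of -0.47 with the Y-linked covariate (adjusted p = 0.568) and -0.55 in the 7 libraries (adjusted p = 0.796), where the libraries with Y-linked transcripts are absent. Of 93 named calls 18 were lost with the covariate and 18 in the 7 libraries, in each case beside that of Ddx3y, whose sign turned. Without at least 1 library 10 were lost (Cd3d, Cd3g, Dcpp3, Ddx3y, Fasn, Ikzf2, Kdm5d, Klk1, Tap1 and Tnfrsf4). A replicate block gave 923 (510 and 413) and lost 11 named calls. Same-numbered samples did not deviate together (correlations -0.113 to -0.227), which cannot show whether the numbers pair the samples in some other way. The cause of these shifts was not tested. Flow cell and line remain inseparable under every setting, and genes under about 1 CPM are limited by depth.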
